A study of Mus musculus with 22 samples.

Results

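Mouse tumour cells in which Klf5 had been targeted with CRISPR/Cas9 were compared with cells of the same kind in which Nfatc1 had been targeted, using the 8 RNA-seq libraries of these lines among the 22 libraries of the series. The members are the 4 libraries labelled Klf5KO and the 4 labelled Nfatc1KO. Each line contributed EPCAM+ and EPCAM- cells with sample numbers 1 and 2, which gives 4 matched pairs. The labels describe primary cell lines from a primary tumour with alleles that include Lgr5CreER, p53fl/fl and Rosa26-YFP+/+, and every library used here shares this background. All 8 were collected at day 8 (d8 in the labels), and living single cells positive for mCherry and YFP were sorted by EPCAM staining. Lgr5CreER places the recombinase under the Lgr5 gene, which marks stem cells of the skin and gut. The 4 day 8 control libraries are quoted as background levels without a test, and they enter the alternative fit in which all 22 libraries share the spread.

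The series asks which transcription factors control the states that tumour cells pass through in epithelial-mesenchymal transition (EMT). In EMT, epithelial cells give up desmosomes, tight junctions and keratins and take on vimentin and motility. EPCAM is a surface protein of epithelial cells, so sorting by it separates a more epithelial from a more mesenchymal fraction. KLF5 is a Krüppel-like zinc finger factor active in basal and proliferating epithelium, where it binds GC-rich and CACCC sequences. NFATc1 is a calcium-regulated factor that moves to the nucleus once calcineurin removes its phosphates, and it is known in the skin for keeping hair follicle stem cells at rest.

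The deposited values are counts scaled by the authors to a common total, here between 20007529 and 20011250 per library. Their steps correspond to between 6054919 and 8924830 reads in genes per library, and between 20184 and 22098 genes were above 0. Within each of the 4 groups the libraries correlated at 0.950 to 0.963 (Pearson's r across 17842 genes on the log2 scale). The labels give 1 line name per knockout and do not say whether sample numbers 1 and 2 were separate cultures or clones, so the targeted gene and the history of a line cannot be told apart. The p-values therefore measure the spread between these libraries. The fit counts the EPCAM+ and EPCAM- libraries of 1 line and number as independent, although they share that number. Each line thus has 2 sample numbers, and its 4 libraries need not be 4 independent replicates. Below, 4 values in a row stand for EPCAM+ numbers 1 and 2 and then EPCAM- numbers 1 and 2, in deposited units. A log2 fold change is Klf5KO minus Nfatc1KO on the log2(value + 1) scale, so that a negative value means lower in Klf5KO, and ± gives its standard error.

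The targeted genes were read first. Nfatc1 (chromosome 18, 80606205 to 80713071, minus strand, GRCm38) stood at 754, 558, 910 and 601 in Klf5KO and at 194, 182, 249 and 189 in Nfatc1KO. Control cells held 817, 488, 981 and 542. All 4 Klf5KO libraries lay above all 4 Nfatc1KO libraries and within the range of the control. The log2 fold change was 1.77 ± 0.12 (adjusted p = 2.50e-06, limma), a 3.42-fold difference, and it was 1.78 in EPCAM+ and 1.76 in EPCAM- cells. Klf5 (chromosome 14, 99298691 to 99315036, plus strand) was not low in the libraries labelled Klf5KO. It stood at 2247, 1961, 2008 and 2182 there, at 1623, 1579, 1888 and 1300 in Nfatc1KO and at 2585, 1733, 2941 and 1803 in the control. The log2 fold change was 0.40 ± 0.10 (adjusted p = 0.0438, limma), called in 2 of the 8 fits that leave out 1 library and with adjusted p = 0.702 without the sample number in the model. The mRNA level thus matches the label for Nfatc1 and gives no check of it for Klf5, since the labels do not say where the guide cut and a small insertion or deletion need not change the mRNA count. For that reason the libraries are called by their labels, Klf5KO and Nfatc1KO, throughout.

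**Figure D1:**
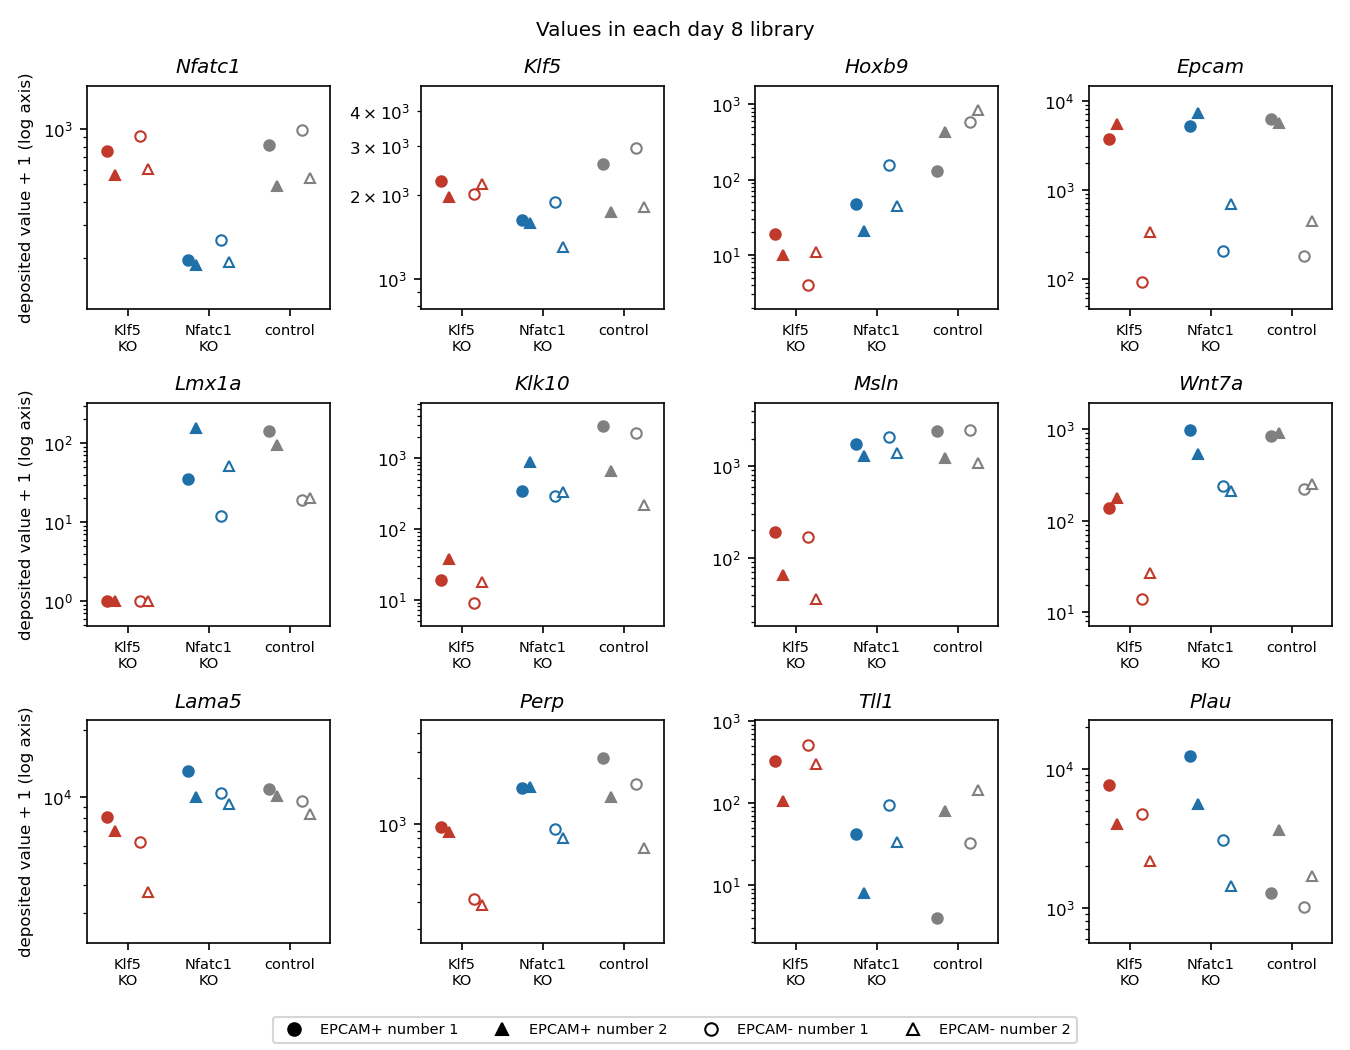
Deposited value plus 1 on a log axis for 12 genes in the 4 Klf5KO, 4 Nfatc1KO and 4 day 8 control libraries; filled symbols are EPCAM+ cells, open symbols EPCAM- cells, circles sample number 1 and triangles number 2. Nfatc1 is low in the Nfatc1KO libraries alone, Klf5 is not low in the Klf5KO libraries, and Lmx1a, Klk10, Msln and Wnt7a are lowest in the Klf5KO libraries.

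The sort was visible in the RNA. Epcam stood at 3702, 5408, 90 and 336 in Klf5KO and at 5166, 7317, 203 and 682 in Nfatc1KO. It was lower in Klf5KO in each of the 4 pairs, with a log2 fold change of -0.78 ± 0.31 that did not pass (adjusted p = 0.375, limma). With the matched pairs as a block Epcam was called (adjusted p = 0.00581), while without the sample number its adjusted p was 0.995. Its log2 fold change was -0.82 within sample number 1 alone and -0.73 within number 2 alone, each with 1 library per line and fraction. Vim, the mesenchymal intermediate filament vimentin, stood at 16658, 11196, 46094 and 45741 in Klf5KO and at 8222, 5926, 47263 and 45539 in Nfatc1KO. Its EPCAM+ values were higher in Klf5KO and its EPCAM- values overlapped (log2 fold change 0.48 ± 0.24, adjusted p = 0.473). Krt8, a simple epithelial keratin, was abundant in all 8 libraries, from 10404 to 17696, whereas Krt5 did not exceed 50 and Trp63 did not exceed 11. Summed over the 6 immune markers fixed for this comparison, levels ran from 97 to 243 in Klf5KO and from 103 to 192 in Nfatc1KO, nearly all of it Csf1r, and Cd3e was at 0 in every library. Sums of the 4 endothelial markers ran from 65 to 217 in Klf5KO and from 91 to 232 in Nfatc1KO, and sums of the 5 fibroblast and mural markers from 137 to 260 and from 73 to 242. Muscle markers summed to 84 to 170 and 31 to 191, melanocyte and Schwann markers to 70 to 130 and 97 to 157, and adipocyte markers to 12 to 20 and 3 to 9. Of the tested members of these 6 lists none was called.

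With both fractions together, 326 of 17842 genes tested were called at an adjusted p under 0.05 (limma with EPCAM fraction and sample number as terms, Benjamini-Hochberg adjustment), or 1.83% of genes. Of these, 206 were lower in Klf5KO (1.15%) and 120 higher (0.673%). Genes lower in Klf5KO differed by more, with a median size of 0.93 on the log2 scale against 0.63, and 95 of them differed more than 2-fold against 27 of those higher. In 115 of the 326 the libraries of the knockouts did not overlap at all, of which 66 were lower and 49 higher. Over all genes tested the lines did not overlap in 513, or 2.88%, with 1.65% lower and 1.22% higher in Klf5KO. The control mean lay nearer to Nfatc1KO than to Klf5KO for 150 of the 206 lower genes and for 85 of the 120 higher ones. This was counted for called genes only. Without the share over all genes tested, it does not set the called genes apart from the rest. The count of 326 calls rests on the sample number in the model and on the spread estimate. Without the number 23 genes were called (0.129%), with all 22 libraries sharing the spread 58, with the variance prior not allowed to follow expression level 4, and with 1 library left out between 154 (without Klf5KO EPCAM+ number 2) and 484 (without Nfatc1KO EPCAM+ number 1).

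**Figure D2:**
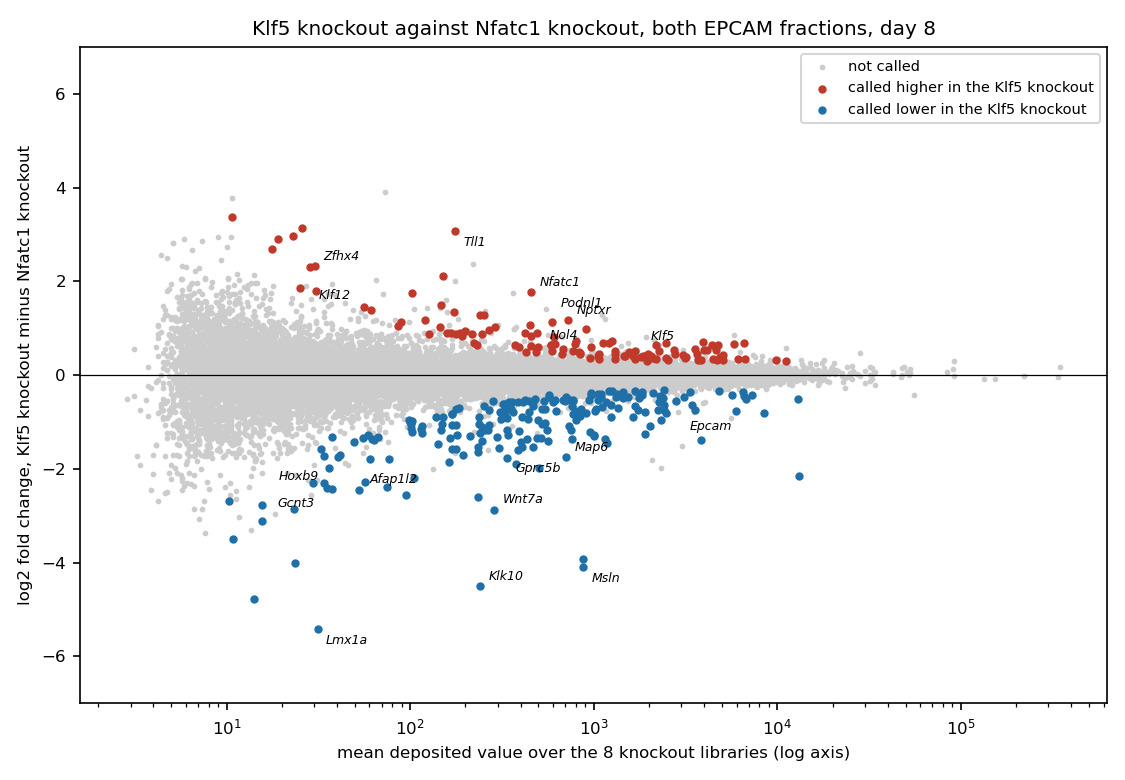
Log2 fold change (Klf5KO minus Nfatc1KO) against the mean deposited value of the 8 knockout libraries (log axis) for the 17842 genes tested, with called genes in colour and most of the named genes at both ends labelled. Called genes below the zero line reach further (Lmx1a, Klk10, Msln) than those above it, where Tll1 has 3.07. Lmx1a was at 0 in all 4 Klf5KO libraries, so its place depends on the pseudocount.

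In 16 genes the call held in all 8 fits that leave out 1 library, without the sample number and with all 22 libraries sharing the spread. Nfatc1 was the 1 gene of these that was higher in Klf5KO. The 15 lower ones were Klk10, Msln, Mal, Lmx1a, Xpnpep2, Wnt7a, Gas7, Proser2, Map6, Als2cl, Cav1, Perp, Trpv4, Gm43127 and Gm42835. Mal, Xpnpep2, Als2cl, Cav1, Trpv4 and both predicted genes are named here because of these values and not by the rule that chose the other genes. Among the 15 lower ones, Lmx1a, Xpnpep2 and Gm42835 reached 10 in Nfatc1KO libraries alone and entered the test only through that line. Mal, a membrane protein of apical transport, stood at 333, 263, 13 and 3 in Klf5KO and at 3585, 2422, 228 and 126 in Nfatc1KO (log2 fold change -3.91 ± 0.30, adjusted p = 0.000147). Cav1, the caveolar coat protein caveolin-1, stood at 1001, 836, 1447 and 1250 against 2173, 2537, 3252 and 2744 (log2 fold change -1.25 ± 0.09, adjusted p = 6.01e-06). Mal was higher in EPCAM+ cells of both lines, Cav1 was not, and in Cav1 the lines did not overlap.

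The lowest genes were a mixed set of secreted, surface and regulatory genes. Klk10 (chromosome 7, 43781035 to 43785410, plus strand), a secreted kallikrein-family serine protease of stratified epithelium, stood at 18, 36, 8 and 17 in Klf5KO and at 343, 876, 292 and 331 in Nfatc1KO. Control cells held 2861, 672, 2326 and 218, so that only the Klf5KO libraries were below 50. The log2 fold change was -4.49 ± 0.23 (adjusted p = 8.88e-08, limma), 22.5-fold, and close to that in each fraction (-4.37 in EPCAM+ and -4.62 in EPCAM- cells). Msln encodes mesothelin, a glycolipid-anchored surface protein that many carcinomas carry. It stood at 193, 65, 169 and 35 in Klf5KO, at 1759, 1305, 2073 and 1390 in Nfatc1KO and at 2428, 1216, 2471 and 1094 in the control, with a log2 fold change of -4.09 ± 0.32 (adjusted p = 0.00120). Nfatc1KO and control values overlapped and Klf5KO lay far below both.

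Lmx1a, a LIM homeobox factor best known from the developing midbrain, was at 0 in all 4 Klf5KO libraries and at 34, 156, 11 and 50 in Nfatc1KO. Set against the value of 3 reads, on average 7.49 per Klf5KO library, it was at least 8.38-fold lower in Klf5KO (adjusted p = 0.000761, limma). Lmx1a reached 10 in Nfatc1KO libraries alone, so it entered the test only through the line where it is higher. Wnt7a, a Wnt ligand, stood at 137, 175, 13 and 26 in Klf5KO and at 974, 529, 236 and 211 in Nfatc1KO. It was higher in EPCAM+ cells of both lines, and within each fraction Klf5KO was below Nfatc1KO (log2 fold change -2.87 ± 0.34, adjusted p = 0.00338). Wnt10a, the other called member of 34 tested Wnt genes, stood at 1024, 729, 404 and 286 against 1931, 1602, 1180 and 840 (log2 fold change -1.29 ± 0.11, adjusted p = 1.58e-05). The Wnt list had a median log2 fold change of 0.02, beside -0.01 over all genes, so its other members centred on no difference.

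The rest of the lowest 12 included Gas7, Afap1l2, Gcnt3, Gbp9, Proser2, Gprc5b and Map6, with log2 fold changes from -2.59 to -1.74. Map6 encodes a microtubule-stabilising protein and stood at 229, 240, 364 and 491 in Klf5KO and at 1178, 866, 1397 and 876 in Nfatc1KO (log2 fold change -1.74 ± 0.20, adjusted p = 0.00270). The control held 1039, 1021, 1140 and 1078, inside the Nfatc1KO range. Gbp9, an interferon-inducible GTPase, had few reads (9, 3, 30 and 24 against 34, 50, 41 and 99) and was called in 2 of the 8 fits that leave out 1 library.

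To show the sequence before the starts of genes that were lower in Klf5KO, the 250 bases upstream of the RefSeq transcription start (GRCm38.p6) are given for Klk10, Wnt7a and Dsp, a desmosomal gene described below. They were taken from those named genes that have an entry in the promoter table (43 of 66 called ones), as examples of a squamous, a Wnt and a junction gene. Klk10 is at chr7:43780804-43781053 on the plus strand, Wnt7a at chr6:91411354-91411603 on the minus strand and Dsp at chr13:38151044-38151293 on the plus strand. Capitals mark CACCC or its complement GGGTG, the box bound by Krüppel-like factors.
Klk10: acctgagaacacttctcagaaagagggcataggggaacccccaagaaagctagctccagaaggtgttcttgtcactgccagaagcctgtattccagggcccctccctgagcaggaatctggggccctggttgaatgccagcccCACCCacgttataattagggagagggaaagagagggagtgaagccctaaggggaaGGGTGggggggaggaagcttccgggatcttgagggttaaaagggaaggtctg
Wnt7a: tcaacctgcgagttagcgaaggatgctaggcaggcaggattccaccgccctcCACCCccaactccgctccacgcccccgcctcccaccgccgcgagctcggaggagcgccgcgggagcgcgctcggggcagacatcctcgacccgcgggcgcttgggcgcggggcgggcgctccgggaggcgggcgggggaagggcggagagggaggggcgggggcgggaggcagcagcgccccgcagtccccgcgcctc
Dsp: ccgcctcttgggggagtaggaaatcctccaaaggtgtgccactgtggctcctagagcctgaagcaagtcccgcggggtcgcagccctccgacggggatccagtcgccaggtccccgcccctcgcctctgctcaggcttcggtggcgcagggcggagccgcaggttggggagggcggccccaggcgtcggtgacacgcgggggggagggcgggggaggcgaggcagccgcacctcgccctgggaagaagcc
Klk10 had 2 matches, Wnt7a 1 and Dsp 0. Of the 206 genes lower in Klf5KO 148 had an entry, and 68.2% of these held at least 1 CACCC on either strand. The share was 63.5% of the 74 entries of genes higher in Klf5KO, 56.9% of the 10423 entries of genes tested and 51.3% of all 27025 entries. GGAAA, the core of NFAT sites, was found on either strand in 43.2% of entries of lower genes, 47.3% of higher ones and 53.8% of genes tested. TGANTCA, the AP-1 motif, was found in 7.43%, 4.05% and 4.53%. None of the motifs contains another, and the matches describe letters and not binding.

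The junction genes that were called were all lower in Klf5KO. Of 39 tested members 7 were called against 1.15% of all genes and the remaining 32 were not, while 32 of the 39 log2 fold changes were negative, with a median of -0.34 beside -0.01 over all genes. Of the 7, Perp kept its call without the sample number. The called members were the desmosomal genes Pkp1, Dsp, Perp and Ppl, the tight junction gene Cldn7 and the apical membrane genes Mal2 and Prom2. Pkp1 encodes plakophilin-1 of the desmosome plaque and stood at 2485, 1108, 1951 and 744 in Klf5KO and at 5509, 2389, 3096 and 1431 in Nfatc1KO. It was lower in every pair by about the same factor although the numbers differed widely (log2 fold change -0.97 ± 0.09, adjusted p = 2.02e-05), and it was not called without the sample number (adjusted p = 0.928). Dsp, desmoplakin, which ties the plaque to keratin filaments, stood at 3280, 1471, 626 and 277 against 5312, 3053, 1326 and 805 (log2 fold change -1.09 ± 0.11, adjusted p = 8.50e-05). Without the number it had an adjusted p of 0.691. Perp, a p53-regulated desmosomal membrane protein, stood at 947, 879, 317 and 288 against 1728, 1738, 921 and 802 (log2 fold change -1.21 ± 0.12, adjusted p = 3.33e-05) and without the number had an adjusted p of 0.0214. Mal2 stood at 196, 211, 5 and 12 against 374, 671, 24 and 58 (log2 fold change -1.71 ± 0.26, adjusted p = 0.00212).

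Other junction genes did not pass. Cdh1, which encodes E-cadherin, stood at 4076, 2120, 369 and 214 in Klf5KO and at 7473, 5074, 348 and 523 in Nfatc1KO (log2 fold change -0.83 ± 0.27, adjusted p = 0.261), lower in 3 of 4 pairs. Cldn3, a claudin of tight junctions, had a positive log2 fold change of 0.41. Among 17 epithelial regulators, Rbm47, an RNA-binding splicing factor, was lower (808, 1007, 221 and 295 against 1431, 1513, 300 and 501, log2 fold change -0.65 ± 0.11, adjusted p = 0.00578), and Klf5 itself was the 1 member called higher. Beside these groups stand the Epcam and Vim values above. The 9 epithelial markers summed to 24256 to 45084 in Klf5KO and 22694 to 50928 in Nfatc1KO, and the 7 mesenchymal-state markers to 103315 to 159816 and 68525 to 154784. Krt8 and Krt18 were the largest members of the epithelial sums in every library. In EPCAM+ cells alone the mesenchymal-state sums were 137793 and 103315 in Klf5KO against 101501 and 68525 in Nfatc1KO. Most of each of these sums was Fn1, or fibronectin, at 112721 and 86129 against 87156 and 58280. All 7 mesenchymal-state markers had positive log2 fold changes with fractions together. In EPCAM+ cells 3 of them, Prrx1, Zeb2 and Vim, were called higher in Klf5KO, where 0.454% of all genes were. The list median in EPCAM+ cells was 0.68 beside 0.02 over all genes. Without the sample number 0 genes of any list were called in EPCAM+ cells, and with all 22 libraries sharing the spread 8 genes in all were. In EPCAM- cells limma called 0 of the 7, and the list median was 0.13 beside -0.05 over all genes. In bulk libraries fewer epithelial cells and less epithelial RNA per cell cannot be told apart, and the part that the position of cells within each gate had in these differences was not tested.

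Squamous and basal genes called between the lines were lower in Klf5KO. The 12 tested squamous differentiation genes had a median log2 fold change of -0.80 beside -0.01 over all genes, with 7 negative and 5 positive. Called were 3 of them, all lower in Klf5KO, where 1.15% of all genes were called lower. Beside Klk10 these were Tgm1, the transglutaminase that cross-links the cornified envelope (0, 14, 0 and 10 against 17, 40, 16 and 28, adjusted p = 0.0397), and Cnfn, or cornifelin (0, 5, 0 and 3 against 22, 80, 6 and 9, adjusted p = 0.0403). Both are near the value of 3 reads in Klf5KO, and their calls held in 0 and 2 of the 8 fits that leave out 1 library. Cnfn reached 10 in Nfatc1KO libraries alone, so it entered the test and the list only through the line where it is higher. The structural genes Krt10, Lor and Ivl, by contrast, had log2 fold changes of 0.19, 0.26 and 0.30 and were not called. Of 16 basal and stress keratinocyte genes 2 were called lower, against 1.15% of all genes. Krt14, the basal keratin, stood at 2583, 863, 2557 and 665 in Klf5KO and at 5188, 1464, 3405 and 1155 in Nfatc1KO (log2 fold change -0.74 ± 0.09, adjusted p = 0.000331). Itgb4, the hemidesmosome integrin, stood at 5313, 2961, 1759 and 790 against 8679, 3607, 2965 and 1349 (log2 fold change -0.63 ± 0.09, adjusted p = 0.000922). Sample numbers differed more than the lines in both, and without the number in the model their adjusted p were 1.00 and 0.996. Krt19 was the 1 called of 5 simple epithelial keratins (256, 375, 114 and 175 against 572, 479, 205 and 299, log2 fold change -0.78 ± 0.15, adjusted p = 0.0169), and without the sample number its adjusted p was 0.518. Krt8 and Krt18, the main keratins of simple epithelium, had positive log2 fold changes of 0.23 ± 0.06 and 0.16 ± 0.07, above Nfatc1KO in all 4 pairs and not called (adjusted p = 0.0983 and 0.351).

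Among laminin chains of the basement membrane, Lama3 and Lama5 were lower in Klf5KO and Lamb3 did not pass. Lama3, the alpha chain of laminin-332, stood at 4150, 3225, 569 and 428 against 14151, 4988, 2060 and 1021 (log2 fold change -1.38 ± 0.20, adjusted p = 0.0196). Lama5, the alpha chain of laminin-511, stood at 8077, 7037, 6246 and 3725 against 13019, 9949, 10424 and 9231 (log2 fold change -0.81 ± 0.11, adjusted p = 0.00301). Lamb3, the beta chain of laminin-332, was not called (6302, 4104, 4597 and 2906 against 12330, 3683, 6247 and 2798, log2 fold change -0.30 ± 0.18, adjusted p = 0.547). Itga6, the integrin partner of Itgb4, did not overlap between the lines (1289, 1511, 562 and 573 against 4437, 3082, 5024 and 2194), but its log2 fold change of -1.98 ± 0.35 did not pass (adjusted p = 0.0763). Of 42 tested matrix genes 4 were called, all lower in Klf5KO, against 1.15% of all genes. Among them were Lama3, Lama5 and Fbn1, or fibrillin-1, and the list median was 0.04 beside -0.01 over all genes. Collagens lay on both sides of 0, from -1.23 for Col5a3 to 0.92 for Col6a1, with none called.

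The EMT transcription factors that were called were all higher in Klf5KO. Of 17 tested members 4 were called, against 0.673% of all genes, and 15 of 17 log2 fold changes were positive (median 0.26). Nfatc1, the gene targeted in the other line, is 1 of the 4, which leaves 3 calls among the remaining 16 members. The 15 positive values and the median include Nfatc1. Prrx1 is also 1 of the mesenchymal-state markers, and the list was chosen with earlier results of these data known. Without the sample number Nfatc1 alone was called, with adjusted p of 0.138 for Prrx1, 0.248 for Sox4 and 0.891 for Runx2. The higher mesenchymal-state sums of Klf5KO EPCAM+ cells, mostly Fn1, stand beside this list, and their part in it was not tested. Prrx1, a paired-related homeobox factor of mesenchyme, stood at 3028, 2755, 2933 and 3408 in Klf5KO and at 1589, 1536, 2098 and 2418 in Nfatc1KO, with no overlap (log2 fold change 0.69 ± 0.10, adjusted p = 0.00117). The control held 2109, 2943, 4150 and 4650. Sox4 stood at 8098, 10022, 6237 and 8389 against 5207, 4678, 5513 and 4727 (log2 fold change 0.69 ± 0.12, adjusted p = 0.020). Runx2, a bone and cartilage regulator, stood at 621, 422, 676 and 534 against 474, 285, 461 and 386 (log2 fold change 0.49 ± 0.11, adjusted p = 0.0375) and was called in 1 of the 8 fits that leave out 1 library. Zeb1, Zeb2, Snai1, Snai2 and Twist1, the core repressors of Cdh1, had log2 fold changes of 0.23, 0.44, 0.23, 0.45 and 0.03 with fractions together. None was called there, while in EPCAM+ cells alone Zeb2 was called higher in Klf5KO. That call did not hold without the sample number. Itga5, the fibronectin receptor chain, was the 1 called of 26 mesenchymal cytoskeleton and adhesion genes (log2 fold change 0.42 ± 0.08, adjusted p = 0.0185).

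**Figure D3:**
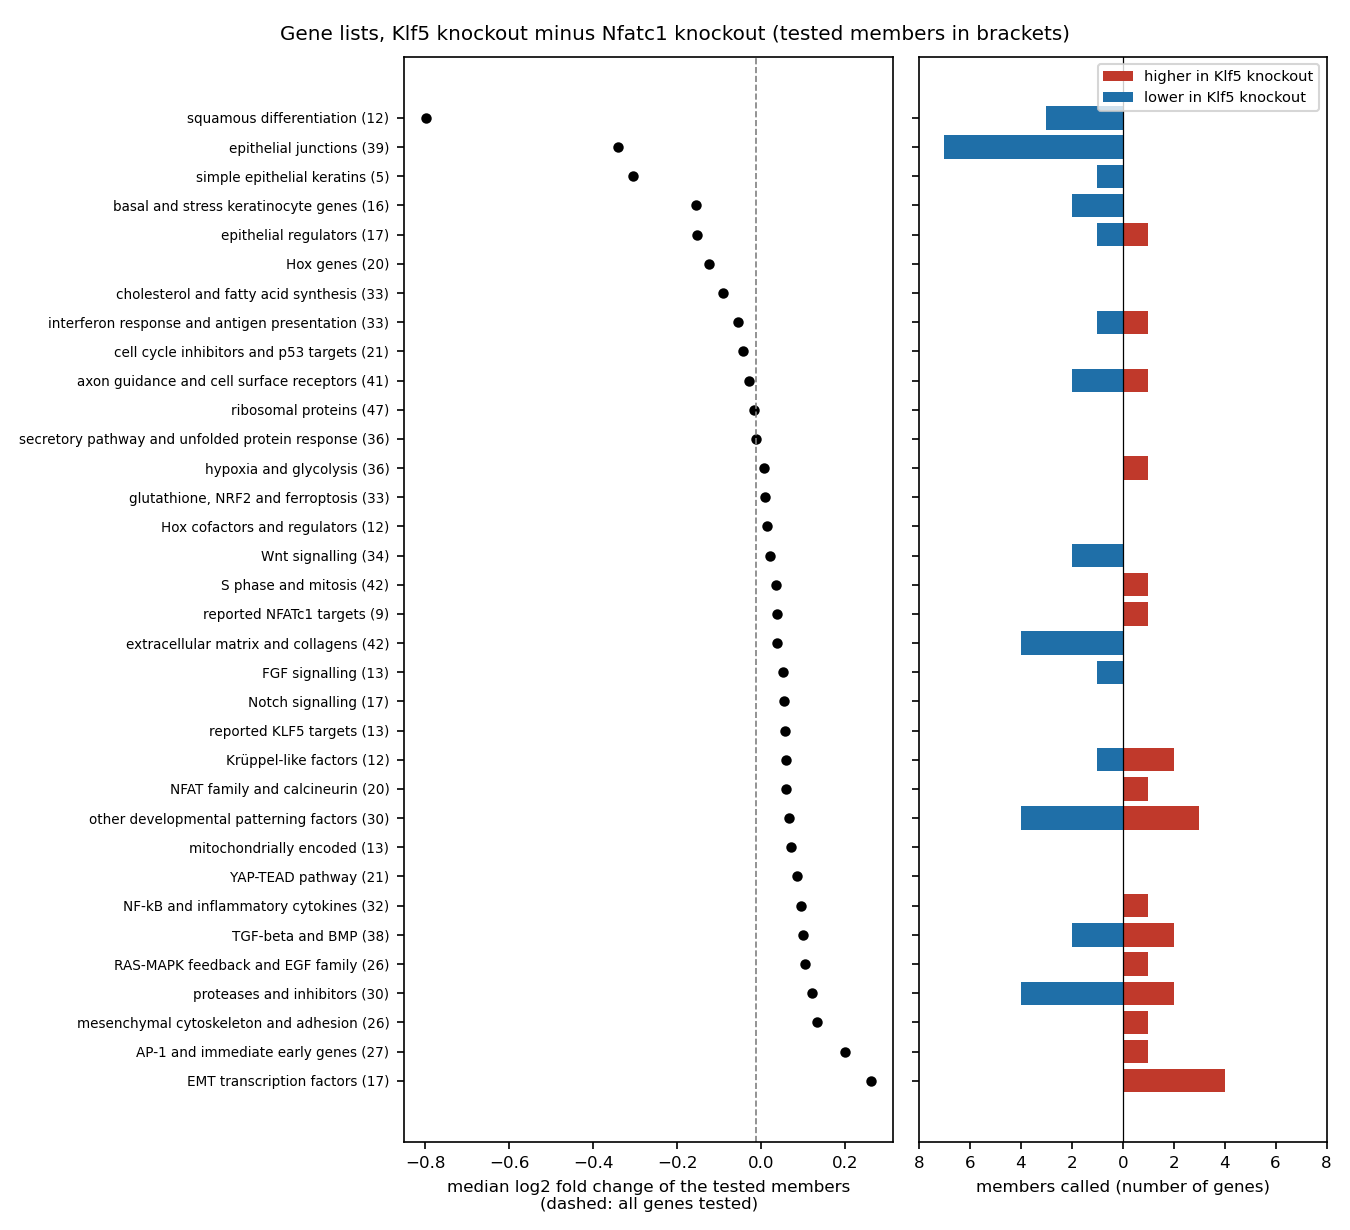
Left, the median log2 fold change (Klf5KO minus Nfatc1KO) of the tested members of each gene list other than the cell type marker lists, with the median of all genes tested dashed; right, the number of members called lower (left of 0) or higher (right of 0) in Klf5KO. Of the lists drawn, squamous (-0.80) and junction genes (-0.34) lie lowest and EMT transcription factors (0.26) highest.

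Of 12 tested Krüppel-like factors 3 were called, where 1.83% of all genes were. Klf5, the gene targeted in 1 of the lines, is 1 of these 3. Klf12, a transcriptional repressor, was higher in Klf5KO (101, 70, 82 and 74 against 36, 17, 41 and 28, log2 fold change 1.45 ± 0.27, adjusted p = 0.0116), as was Klf5. Klf10, a TGF-beta-inducible member, was lower (1588, 1356, 1835 and 1298 against 1903, 2068, 2188 and 1844, log2 fold change -0.41 ± 0.09, adjusted p = 0.0367). None of these 3 calls held without the sample number in the model, with an adjusted p of 0.284 for Klf12 and 0.721 for Klf10. Klf4 and Klf6, epithelial members related to Klf5, had log2 fold changes of 0.01 and 0.11. In the NFAT and calcineurin list Nfatc1 was the 1 called of 20 tested. Nfatc2, Nfatc3, Nfatc4 and Nfat5 had log2 fold changes of -0.14, 0.15, 0.51 and -0.01, and Rcan1, a feedback inhibitor of calcineurin that NFAT induces, had 0.10 ± 0.12. Genes reported elsewhere as targets of KLF5 (13 tested) had 0 calls here with limma and a median of 0.06. The one furthest from 0 was Fgfbp1, an FGF-binding protein, at 12, 9, 0 and 0 against 32, 169, 3 and 6 (log2 fold change -2.56 ± 0.63, adjusted p = 0.0545). Reported NFATc1 targets (9 tested) had 1 call, Nfatc1 itself.

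Hoxb9, a posterior homeobox gene, was low in both lines beside the control. It stood at 18, 9, 3 and 10 in Klf5KO, at 46, 20, 154 and 44 in Nfatc1KO and at 131, 423, 590 and 840 in the control. All 4 Klf5KO libraries were below all 4 Nfatc1KO libraries, yet the log2 fold change of -2.42 ± 0.61 missed the threshold (adjusted p = 0.0795, limma). It was 0.0528 with all 22 libraries sharing the spread and 0.566 without the sample number, and it passed with voom on recovered reads (0.0391) and with no filter on low values (5.88e-06). In EPCAM- cells alone the contrast passed (log2 fold change -3.65, adjusted p = 0.0347) and in EPCAM+ cells it did not (-1.19, adjusted p = 0.529), while the difference between the fractions was 2.47 ± 0.99 with an adjusted p of 0.827. Of 20 tested Hox genes 0 were called with fractions together by limma over the 8 libraries, whereas Hoxb8 passed with all 22 libraries sharing the spread (adjusted p = 0.0247). The neighbours Hoxb8, Hoxb7 and Hoxb6 had log2 fold changes of -2.85, -1.29 and -0.77 at values no higher than 57. Among 30 other patterning factors 7 were called, against 1.83% of all genes. Without the sample number 0 of the 30 were called, and with all 22 libraries sharing the spread 1 was. Prrx1, Runx2 and Irx2 were higher in Klf5KO and Sox11, Runx3, Prrx2 and Tbx15 lower. Prrx1 and Runx2 are also counted among the EMT transcription factors above. Sox11, a neural and progenitor factor, stood at 6907, 3971, 6429 and 4786 in Klf5KO and at 11007, 5735, 8882 and 6089 in Nfatc1KO (log2 fold change -0.50 ± 0.09, adjusted p = 0.00572). For Sox11 the adjusted p without the sample number was 0.991 (limma).

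Proteases, their inhibitors and signalling genes split in both directions. Timp3, a matrix-bound metalloproteinase inhibitor, stood at 285, 406, 554 and 642 in Klf5KO and at 826, 810, 1152 and 1373 in Nfatc1KO, with no overlap (log2 fold change -1.17 ± 0.11, adjusted p = 2.02e-05). It passed without the sample number (adjusted p = 0.0238) but not with all 22 libraries sharing the spread (adjusted p = 0.551). Adam8, a membrane metalloproteinase, stood at 211, 92, 124 and 56 against 548, 417, 241 and 176 (log2 fold change -1.53 ± 0.18, adjusted p = 0.000296). Serpine2, an inhibitor of serine proteases, was higher in Klf5KO (54, 63, 15 and 37 against 3, 4, 6 and 3, log2 fold change 2.98 ± 0.52, adjusted p = 0.00688), with Nfatc1KO below the value of 3 reads, on average 8.24, so that the size of this fold change depends on the pseudocount. Serpine2 reached 10 in Klf5KO alone, so it entered the test only through that line. In all, 6 of 30 tested protease and inhibitor genes were called, 4 lower and 2 higher, against 1.83% of all genes. Of 38 TGF-beta and BMP genes 2 were lower and 2 higher, against 1.15% and 0.673% of all genes. Tgfbr2, the type II receptor of TGF-beta, stood at 1591, 1125, 1818 and 1086 in Klf5KO and at 2903, 1916, 2766 and 2054 in Nfatc1KO, with no overlap (log2 fold change -0.79 ± 0.08, adjusted p = 4.60e-05). Ltbp1, a protein that holds latent TGF-beta in the matrix, was higher (5848, 4973, 6234 and 5778 against 3905, 2488, 5342 and 3392, log2 fold change 0.64 ± 0.10, adjusted p = 0.00505). The ephrin receptors Epha4 and Epha2 were lower in Klf5KO (log2 fold changes -0.69 ± 0.08 and -0.42 ± 0.08) and the ligand Efnb1 was higher (0.65 ± 0.14). Fgf13, an intracellular FGF homologous factor, was lower (110, 182, 35 and 83 against 302, 463, 75 and 197, log2 fold change -1.28 ± 0.19, adjusted p = 0.00146). Of these named protease and signalling genes Timp3 alone passed without the sample number. There the adjusted p (limma) was 0.281 for Adam8, 0.116 for Serpine2, 0.512 for Tgfbr2 and 0.601 for Ltbp1. It was 0.614 for Epha4, 0.976 for Epha2, 0.842 for Efnb1 and 0.636 for Fgf13.

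Genes higher in Klf5KO were led by Tll1, a BMP1-like metalloproteinase that matures matrix proteins. It stood at 324, 106, 507 and 300 in Klf5KO and at 41, 7, 93 and 33 in Nfatc1KO (log2 fold change 3.07 ± 0.25, adjusted p = 1.40e-05), and at 3, 79, 32 and 143 in the control, which overlapped both lines. Within each sample number and fraction Klf5KO was above Nfatc1KO, and without the number the adjusted p was 0.199. Nptxr, the neuronal pentraxin receptor, stood at 909, 1202, 797 and 1135 against 347, 450, 443 and 537 (log2 fold change 1.18 ± 0.11, adjusted p = 2.51e-05). Podnl1, a leucine-rich repeat protein of the matrix, stood at 737, 700, 920 and 868 against 374, 202, 515 and 452 (log2 fold change 1.14 ± 0.15, adjusted p = 0.00113). The others of the highest 12 beyond Nfatc1 included Zfhx4, Klf12, Npr3, Nol4, Gcnt1 and Glrx, with log2 fold changes from 0.87 to 2.33. Npr3, the clearance receptor for natriuretic peptides, ranged from 218 to 480 in Klf5KO and from 67 to 200 in Nfatc1KO. In the control it ran from 3 to 569, wider than in either knockout.

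Pathways of growth and metabolism had few or no calls. Of 42 S phase and mitosis genes 1 was higher (Uhrf1, log2 fold change 0.38 ± 0.09, adjusted p = 0.0375) and the median was 0.04. Egln3, a prolyl hydroxylase induced by hypoxia, was the 1 called of 36 hypoxia and glycolysis genes (214, 364, 347 and 442 against 48, 156, 141 and 320, log2 fold change 1.28 ± 0.22, adjusted p = 0.0116). Xaf1 was lower and Nlrc5 higher among 33 interferon and antigen presentation genes. Single members were called among the NF-kB and cytokine genes (Csf1, 32 tested), the AP-1 and immediate early genes (Dusp2, 27 tested) and the RAS-MAPK feedback genes (Spry2, 26 tested), each higher in Klf5KO. No member was called, with limma, among cell cycle inhibitors and p53 targets (21), cholesterol and fatty acid synthesis (33), Notch (17), YAP-TEAD (21), secretory pathway (36), glutathione and ferroptosis (33), Hox cofactors (12), ribosomal proteins (47) or mitochondrially encoded genes (13). The medians of these lists lay between -0.09 and 0.09. In simulated libraries of this design 91.0% of genes changed 2-fold and 28.4% of those changed 1.5-fold were recovered, so most differences of the smaller size were missed there. The simulation gave all genes 1 spread setting, both lines the same difference between sample numbers and the fractions no difference. It changed only genes above a minimum read level, so these shares need not hold for the real libraries.

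The lines were also compared within each fraction. In EPCAM+ cells 177 genes were called (0.992% of those tested), 96 lower (0.538%) and 81 higher (0.454%) in Klf5KO, and in EPCAM- cells 108 (0.605%), 85 lower (0.476%) and 23 higher (0.129%). The balance of directions in EPCAM+ cells turned without Nfatc1KO EPCAM+ number 1 (376 higher and 209 lower) or number 2 (137 and 110), and with no filter on low values (298 and 248). The median standard error of the difference between the fractions was 0.31 on the log2 scale, against 0.16 for the contrast with fractions together. The difference between the fractions was called for 1 gene, or 0.0056%, and had an unadjusted p under 0.05 in 1072. That gene was Plau, urokinase, the protease that activates plasminogen. In EPCAM+ cells it stood at 7637 and 3996 in Klf5KO and at 12381 and 5553 in Nfatc1KO, and in EPCAM- cells at 4751 and 2179 against 3098 and 1431. Klf5KO was thus below Nfatc1KO in both EPCAM+ pairs and above it in both EPCAM- pairs, with log2 fold changes of -0.59 and 0.61 and a difference between them of -1.20 ± 0.14 (adjusted p = 0.0171, limma).

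**Figure D4:**
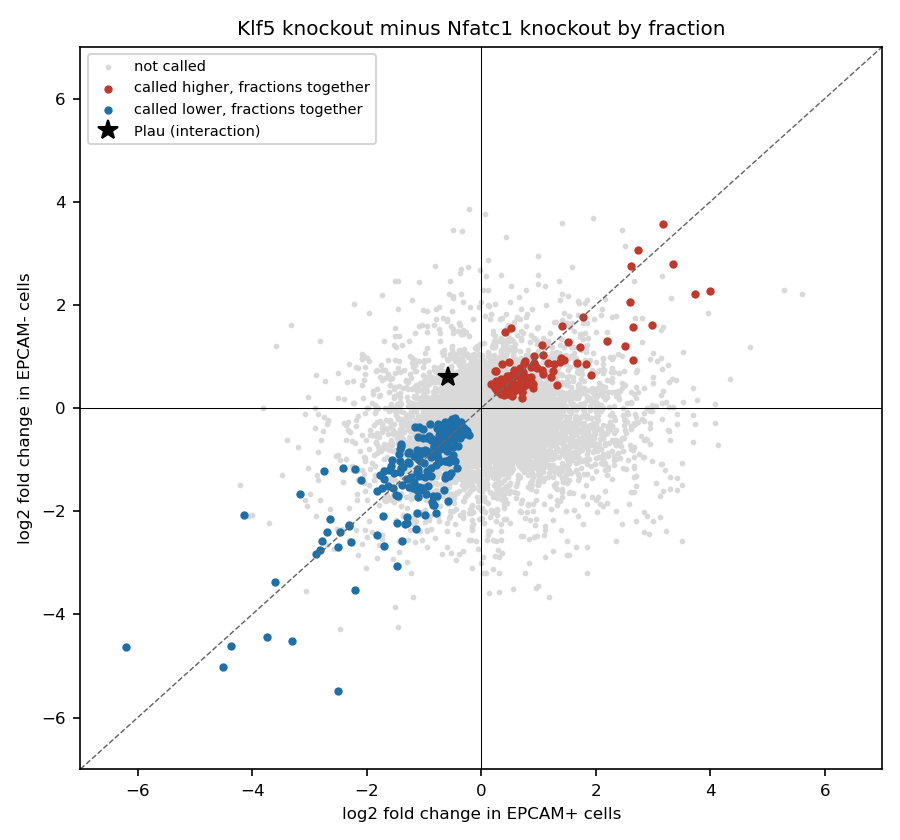
Log2 fold change (Klf5KO minus Nfatc1KO) in EPCAM+ cells on the horizontal and in EPCAM- cells on the vertical axis for the genes tested, with genes called with fractions together in colour and the diagonal dashed. Genes in colour were chosen on the mean of both axes, and Plau (star, -0.59 and 0.61) lies in the upper left.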

How the data were processed

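RNA was taken from sorted cells, with libraries made by the Ovation Solo kit, per the labels' protocols. Per the submitters' processing notes, FastQC, Trimmomatic, STAR, Picard and HTSeq were used with GRCm38 (mm10). Versions and counting settings are not given in the sources used here. The deposited values, called normalised counts by the authors, are treated as a score and not as counts: they are whole numbers, each library sums to about the same total, and 99.8 to 99.9% of values are whole multiples of a step of 2.24 to 3.30, rounded up. The step gave the number of reads, with intervals and floors of 3 reads covering counting error only.

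From these values, log2(value + 1) was fitted with limma 3.58.1 in R 4.3.3 (trended, robust prior) over the 8 libraries with line, EPCAM fraction and sample number as terms, for 17842 genes with at least 10 in at least 2 libraries. Residual degrees of freedom were 4, or 3 with 1 mean per line and fraction, the fit behind the values within fractions. The labels call the sample number a batch. Differences between numbers 1 and 2 correlated across genes at 0.327 to 0.476 in all 6 pairs of the 4 groups, so the numbers pair the libraries. The correlation was highest between the fractions of 1 line (0.476 in Klf5KO and 0.411 in Nfatc1KO). The sample number as an additive term does not take up what is shared within a line only. Benjamini-Hochberg adjustment covered all genes tested. On simulated data 3.95% of calls were false (17782 genes). The simulated data held effects of line and sample number as in the fit and no difference between fractions. This share therefore need not hold for the real libraries.

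Members, gene lists (42, with 1102 entries) and tests were chosen with earlier results of these data known. The genes named are Klf5, Nfatc1, Hoxb9 and Epcam, the 12 highest and 12 lowest called genes without overlap and with a mean of at least 50 (predicted genes, mitochondrially encoded genes and pseudogenes left out), up to 4 called members of each list (2 by unadjusted p where none was called) and the called genes of the interaction; other members are named as values. Gene positions are from GENCODE M21 (99.3% of 49671 IDs matched); promoters are from RefSeq, GRCm38.p6, first listed start, 250 bases upstream. A few items are not reported here.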

Additional observations from a re-analysis of the deposited data

Results flagged for a closer look

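Plau was marked for a closer look because its difference between the lines was not the same in both fractions. The difference of the log2 fold changes, EPCAM+ minus EPCAM-, was -1.1973 (adjusted p = 0.0171, limma). It was called in 2 of the 8 fits that leave out 1 library, those without Nfatc1KO EPCAM+ replicate 1 or replicate 2, and in the fit without the sample number its adjusted p was 1.00. Control cells held 1282 and 3628 in EPCAM+ and 1012 and 1686 in EPCAM- cells.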

How the results depend on the processing

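The log2 fold changes of the 66 called genes that are named kept their direction under the alternatives run, but many of their calls did not hold. Without the sample number as a replicate block the counts of called genes were 23 with fractions together and 0 in EPCAM+ cells, 0 in EPCAM- cells and 0 for the interaction, and 55 of the 66 lost their call. With the variance prior not following expression level (with or without the robust prior, the former chosen after seeing the data) the counts were 4, 0, 0 and 0, and 64 of the 66 lost their call. With all 22 libraries sharing the spread they were 58, 8, 20 and 0, and 48 of the 66 lost their call. With no filter on low values they were 821, 546, 248 and 37.

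Leaving out 1 library gave between 154 and 484 calls with fractions together, between 63 and 585 in EPCAM+ cells, between 24 and 192 in EPCAM- cells and between 0 and 27 for the interaction. With fractions together the low counts came without Klf5KO EPCAM+ replicate 2 (154), Klf5KO EPCAM- replicate 2 (173), Nfatc1KO EPCAM- replicate 2 (186) and Nfatc1KO EPCAM+ replicate 2 (196). In EPCAM+ cells counts moved most without Klf5KO EPCAM+ replicates 2 (63) or 1 (84), Nfatc1KO EPCAM- replicates 1 (109) or 2 (113) and Nfatc1KO EPCAM+ replicate 1 (585). In EPCAM- cells they did so without Nfatc1KO EPCAM- replicates 2 (24) or 1 (38), Klf5KO EPCAM- replicates 2 (48) or 1 (59) and Nfatc1KO EPCAM+ replicates 1 (189) or 2 (192). Sample number 1 alone gave 146 calls and number 2 alone 755. With the matched pair as a block 12 of the 66 called genes that are named lost their call, Klf5 among them (adjusted p = 0.063). The matched pair as a block (266), other pseudocounts (382 and 405), the stricter filter (309), TMM (359) and median-of-ratios factors (353), the trended prior without the robust step (347, also chosen after seeing the data) and voom on recovered reads (430) stayed within 1.5 times. These scalings moved the median of all genes by 0.02 each.

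Signs turned for 4 marker genes that were not called. Pdgfra became -0.0028568 with sample number 1 alone. Pdgfrb became -0.050 and -0.12 with pseudocounts of 4 and 10, and lay between -0.35 and 0.88 with 1 library left out. Mitf lay between -0.30 and 0.070 with 1 library left out and became 0.22 with number 1 alone. Acta1 lay between -0.25 and 0.46 with 1 library left out and became -0.27 with number 1 alone and -0.065 with voom. The cause was not tested. The planned quasi-likelihood count test was not run, because the values are not raw counts.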
